A study of Gossypium hirsutum with 2 samples.

Results

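Genes of the photosynthetic machinery of upland cotton, Gossypium hirsutum, were compared between ovules of a hairless-seed line and fiber of the wild type, both taken 10 days post anthesis. The FL ovule sample came from XZ142FLM, of genotype li3li3n2n2, a fuzzless-lintless line in which fiber hardly develops. The WT fiber sample came from the wild-type cultivar Xuzhou142, with normal fiber development. The plants of both grew in a greenhouse under long days, and the series was set up to find sites of RNA editing. Each group had 1 library, so tissue and genotype differed together and cannot be told apart, and no test of the groups was possible. Ratios below are descriptions of these 2 libraries.

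The 199 members were the unigenes, assembled transcript sequences, whose annotation text names a photosystem, chlorophyll a, light harvesting, ribulose bisphosphate, Rubisco or oxygen evolution, out of 136262 unigenes in all. By text, 50 named antenna proteins, 101 named photosystem core subunits, 8 named carbon fixation proteins and 40 named factors of assembly or regulation. Levels are RPKM (reads divided by unigene length and by the read total of the library). The filter on low values kept unigenes that reached 1 RPKM in either library, called measured below. By that filter 101 of the 199 members were measured, namely 26 antenna, 57 core, 4 carbon fixation and 14 assembly or regulation unigenes. The other 98 members were below an RPKM of 1 in both libraries. Names of proteins below come from the annotation texts. Near-identical homoeologous copies and fragments of 1 gene may be listed as separate unigenes and divide its reads, so the value of a single unigene is uncertain in that respect.

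Light-harvesting antenna proteins bind chlorophyll and pass the energy of absorbed light to the reaction centres of photosystem I and photosystem II. Photosystem II oxidizes water, with the help of the oxygen-evolving proteins on its lumenal side, and photosystem I reduces ferredoxin. Rubisco fixes carbon dioxide and is built of large subunits encoded in the plastid and small subunits encoded in the nucleus. The chlorophyll-binding reaction centre subunits are likewise encoded in the plastid, whereas all antenna proteins and many smaller core subunits are encoded in the nucleus. In green tissue the nuclear genes of the antenna and of the Rubisco small subunit are among the most highly expressed of all genes.

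FL ovule had 53.4 M reads and WT fiber had 45.6 M reads. A read on a unigene of 1 kb was worth 0.0187 RPKM in FL ovule and 0.0219 RPKM in WT fiber, and where no read was counted, up to 3 reads are possible, which is 0.0562 RPKM in FL ovule and 0.0658 RPKM in WT fiber. Intervals of folds are exact (Clopper-Pearson) 95% intervals from read counts. They cover counting error only, since amplified reads that carry no molecular identifier can repeat a molecule. The 30 most-read unigenes held 38.5% of the reads of FL ovule and 21.1% of those of WT fiber, so scaling moves every ratio. The median log2((RPKM in FL ovule + 1) / (RPKM in WT fiber + 1)) of all measured unigenes was 0.39 with RPKM as deposited. It was -0.23 after setting both RPKM sums equal, 0.51 after scaling by the median ratio (of unigenes with at least 5 RPKM in both libraries), 0.30 after upper quartile scaling and 0.69 with totals that leave out the 30 most-read unigenes. FL ovule held 59.3% of the 2-fold differences of all unigenes as deposited and 25.7%, 68.1%, 53.4% and 81.7% under those scalings. The pseudocount of 1 in this ratio understates the change of low unigenes. Counts past 2-fold use this ratio, whereas folds of single unigenes are given from RPKM with nothing added, so a low unigene can exceed 2-fold by its own fold and not be counted.

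Summed levels of the marker lists of fiber, seed coat and dividing cells were uneven between the libraries. Counts past 2-fold below stand against 15.3% of all measured unigenes towards FL ovule and 10.5% towards WT fiber. Fiber markers (expansins, fasciclin-like proteins and 3-ketoacyl-CoA synthases) summed to 1879 RPKM in FL ovule and 13986 RPKM in WT fiber, with 36 of 113 measured unigenes at least 2-fold higher in each direction. Seed coat markers summed to 338 RPKM in FL ovule and 127 RPKM in WT fiber, with 3 of 4 at least 2-fold higher in FL ovule. Histones and cyclin B, markers of dividing cells, summed to 4940 RPKM in FL ovule and 1271 RPKM in WT fiber, with 51 of 90 past 2-fold towards FL ovule and 5 towards WT fiber. Embryo and endosperm texts, such as oleosin, 2S albumin and late embryogenesis, summed to 1278 RPKM in FL ovule and 1204 RPKM in WT fiber (26 and 14 of 71 past 2-fold). By its text pattern this list may also hold proteins that are not particular to embryo or endosperm. The late embryogenesis unigene Unigene0123729 had 0.269 RPKM in FL ovule and 70.5 RPKM in WT fiber. Unigene0046567, with a lipid-transfer and 2S albumin superfamily text, had 50.7 RPKM in FL ovule and 2.47 RPKM in WT fiber. Vascular markers summed to 53.9 and 46.5 RPKM (4 and 1 of 19), and guard cell markers to 51.8 and 75 RPKM (1 and 1 of 6), in that order of libraries. No seed coat or guard cell marker was at 0 reads in either library. The part of such cell types in the results below was not tested. In these bulk samples, fewer cells of a type and less RNA per cell cannot be told apart.

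Antenna unigenes past 2-fold were mostly higher in FL ovule. Of 50 antenna unigenes, 11 were past 2-fold towards FL ovule and 2 towards WT fiber, or 42.3% and 7.69% of the 26 measured. Among all 63258 measured unigenes the shares were 15.3% and 10.5%. These counts are the same without the filter on low values, because a 2-fold ratio with 1 added to each RPKM needs an RPKM of 1 or more. Counted by any amount and without the filter, 31 of the 50 antenna unigenes (62%) were higher in FL ovule, below the 71.1% of all 136262 unigenes. Their median log2 ratio without the filter was 0.33, against 0.24 for all unigenes. The median of the measured antenna unigenes was 0.92. It was 0.50 after setting both RPKM sums equal, 1.0 after median-ratio scaling, 0.86 after upper quartile scaling and 1.25 without the 30 most-read unigenes, each above the median of all unigenes under the same scaling.

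**Figure D1:**
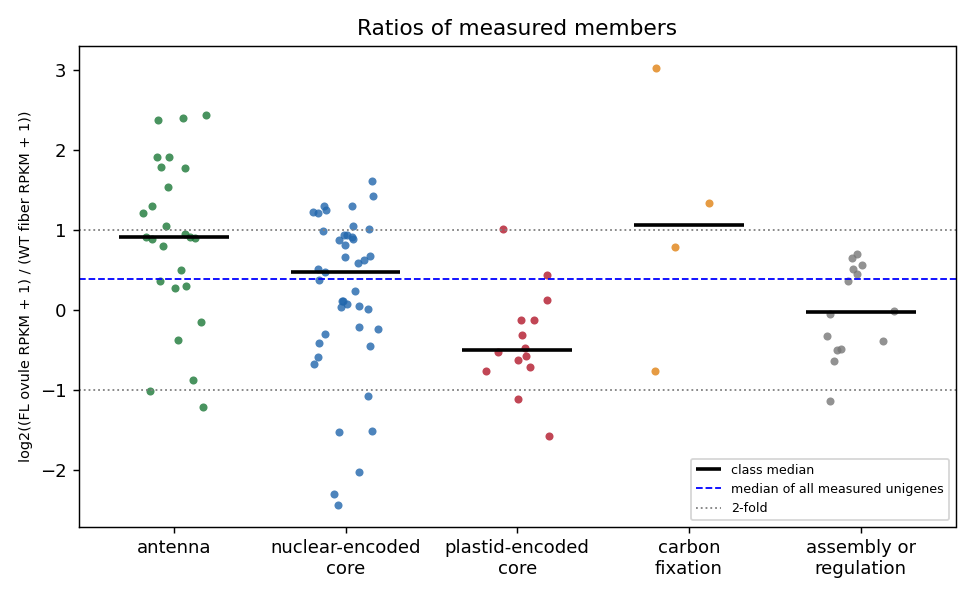
Ratios of the measured members on the y axis, as log2 of FL ovule over WT fiber with 1 added to each RPKM, by class on the x axis. Each point is 1 unigene, black bars are class medians, the dashed line is the median of all measured unigenes (0.39) and dotted lines mark 2-fold. The antenna median lies at 0.92, the nuclear-encoded core at 0.48 and the plastid-encoded core at -0.49.

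Of the 6 measured unigenes with a photosystem II antenna text, 4 were past 2-fold towards FL ovule and 1 towards WT fiber. Lhcb8 (Unigene0037866), a light-harvesting complex II protein, had the highest level of these, with 1333 reads and 23.9 RPKM in FL ovule, against 432 reads and 9.06 RPKM in WT fiber, a 2.64-fold difference (interval 2.36 to 2.95). Light-harvesting chlorophyll B-binding protein 3 (Unigene0136926), a component of the outer photosystem II antenna, had 7.77 RPKM in FL ovule and 2.77 RPKM in WT fiber, 2.80-fold (2.39 to 3.30). Subunit 6 of the photosystem II light-harvesting complex (Unigene0050215), a minor antenna protein close to the core, had 371 reads in FL ovule and 25 in WT fiber, or 7.09 RPKM and 0.559 RPKM, a 12.7-fold difference (8.46 to 19.9). None of the scalings tried was large enough to reverse these 3 differences. The 15 unigenes with a photosystem II antenna text summed to 48.1 RPKM in FL ovule and 19.3 RPKM in WT fiber.

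Photosystem I antenna proteins form a belt on the side of the photosystem I core. Unigenes with a photosystem I antenna text were lower in summed level than those with a photosystem II antenna text. The 20 antenna unigenes whose text names no photosystem, at 59.9 RPKM in FL ovule and 24.5 RPKM in WT fiber, are in neither sum. The Lhca1 unigene Unigene0050929 had 5.91 RPKM in FL ovule and 0.828 RPKM in WT fiber, a 7.13-fold difference (4.93 to 10.6). Its neighbour in numbering with the same text, Unigene0050928, had 2.08 RPKM in FL ovule and 0.640 RPKM in WT fiber. The 13 unigenes with a photosystem I antenna text summed to 18.8 RPKM in FL ovule and 8.11 RPKM in WT fiber. All 6 measured ones were higher in FL ovule as deposited, 1 of them by at least 2-fold on the scale with the pseudocount. Of all 63258 measured unigenes, 42227 were higher in FL ovule by any amount and 15.3% by at least 2-fold.

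Antenna texts that name no photosystem included the largest fold difference of the class. A chlorophyll A-B binding protein of cotton (Unigene0074073) had 271 reads in FL ovule and 8 in WT fiber, or 5.45 RPKM and 0.188 RPKM, a 28.9-fold difference with a wide interval of 14.5 to 67.7. A short unigene of 258 bases with a cotton chlorophyll A/B binding text (Unigene0026138) had 96 reads in FL ovule and 6 in WT fiber, 13.7-fold (6.06 to 38.2). The chlorophyll A-B binding family protein Unigene0002620 had 14.0 RPKM in FL ovule and 2.97 RPKM in WT fiber, 4.70-fold (3.90 to 5.70). Unigenes with the text of Unigene0074073 differed among themselves: Unigene0063188 had 4.44 RPKM in FL ovule and 3.41 RPKM in WT fiber, and Unigene0074072 had 0.935 RPKM in FL ovule and 1.14 RPKM in WT fiber. Unigene0096986, annotated as chlorophyll a-b binding protein 7, was 2.19-fold higher in FL ovule (1.86 to 2.58) at 8.35 RPKM in FL ovule against 3.82 RPKM in WT fiber.

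The antenna class by text also held 2 unigenes of light-harvesting-like protein 3, a thylakoid protein related to the antenna family that is known in Arabidopsis to act in chlorophyll synthesis. They went opposite ways. Unigene0074429 had 20.4 RPKM in FL ovule and 48.6 RPKM in WT fiber, 2.38-fold higher in WT fiber (2.23 to 2.54) and the highest level of the class. Unigene0074430 had 21.7 RPKM in FL ovule and 5.54 RPKM in WT fiber, 3.92-fold higher in FL ovule (3.42 to 4.52). The summed RPKM of the antenna class was 169 in FL ovule, against 106 in WT fiber, a 1.59-fold difference. The RPKM of all unigenes summed to a 1.54-fold difference, and with both RPKM sums set equal the log2 ratio of the antenna sums was 0.045. Without these 2 unigenes, a choice made after seeing the data, the sums were 127 RPKM in FL ovule and 51.9 RPKM in WT fiber, a 2.44-fold difference, with 10 unigenes past 2-fold towards FL ovule and 1 towards WT fiber.

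**Figure D2:**
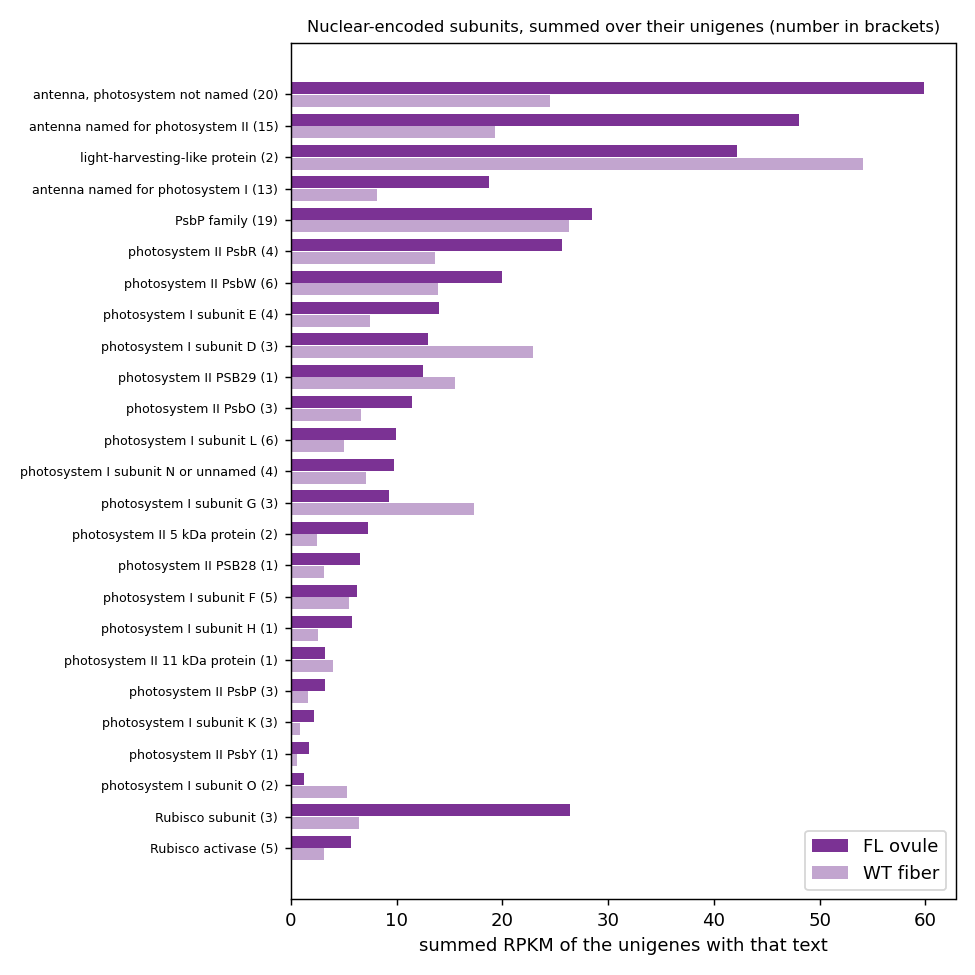
Summed RPKM on the x axis of the unigenes sharing an antenna, nuclear-encoded core or carbon fixation text, for FL ovule (dark bars) and WT fiber (light bars). Only groups with a sum of at least 1 RPKM in 1 of the libraries are drawn, the number of unigenes is in brackets, and there are no error bars because each library is single. The 3 chlorophyll-binding antenna groups and the Rubisco subunits have longer FL ovule bars, whereas light-harvesting-like protein 3 and photosystem I subunits D, G and O have longer WT fiber bars.

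Nuclear-encoded core subunits were divided. Of 79 unigenes, of which 43 were measured, 9 were past 2-fold towards FL ovule and 6 towards WT fiber, or 20.9% and 14.0% of the measured, against 15.3% and 10.5% of all measured unigenes. The balance depended on scaling, with 2 towards FL ovule and 7 towards WT fiber when both RPKM sums were set equal, and 19 and 5 with totals that leave out the 30 most-read unigenes. Their median log2 ratio of 0.48 was close to that of all measured unigenes, and it turned to -0.26 after setting both RPKM sums equal, where the median of all was -0.23. When the unigenes of each subunit were summed, 14 of 19 subunits or families with at least 1 RPKM were higher in FL ovule by any amount and 5 in WT fiber. Of single unigenes, 42227 of all 63258 measured ones and 71.1% of all 136262 were higher in FL ovule by any amount, so this count is near the background. The division of the summed subunits was 10 and 9 after setting both RPKM sums equal and 16 and 3 with totals that leave out the 30 most-read unigenes.

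On the photosystem II side, the most abundant unigenes of PsbR, PsbW and PsbO were higher in FL ovule as deposited. PsbR (Unigene0043695), a small protein near the oxygen-evolving site, had 24.5 RPKM in FL ovule and 11.3 RPKM in WT fiber, 2.18-fold (1.92 to 2.47). PsbW (Unigene0035194), a small membrane subunit, had 11.6 RPKM in FL ovule and 4.36 RPKM in WT fiber, 2.66-fold (2.17 to 3.28). Other unigenes of both differed from these: the PsbW unigene Unigene0046085 had 4.07 RPKM in FL ovule and 4.03 RPKM in WT fiber, Unigene0046084 had 1.95 RPKM in FL ovule and 3.42 RPKM in WT fiber, and the other 3 PsbR unigenes were lower in FL ovule. Summed over its 6 unigenes, PsbW was 1.43-fold higher in FL ovule. PsbO (Unigene0050576), the protein that stabilizes the manganese cluster of water oxidation, had 11 RPKM in FL ovule and 5.05 RPKM in WT fiber, 2.18-fold (1.89 to 2.51). The oxygen-evolving enhancer protein 2 unigene (Unigene0051623), another extrinsic protein of that site, had 2.54 RPKM in FL ovule and 0.436 RPKM in WT fiber. All 5 unigenes with a PsbQ text were below 1 RPKM in both libraries, at 0.259 RPKM or less in FL ovule and 0.303 RPKM or less in WT fiber. PSB29 (Unigene0059333), a factor of thylakoid formation and not a subunit of the mature complex in Arabidopsis, had 12.5 RPKM in FL ovule and 15.5 RPKM in WT fiber. Classes go by text, so PSB29 is counted here with the nuclear-encoded core and among its subunits or families higher in WT fiber. The 19 unigenes with a PsbP family text, a family of which PsbP itself is 1 member, summed to 28.5 RPKM in FL ovule and 26.3 RPKM in WT fiber.

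The photosystem I subunits gave the largest differences towards WT fiber, but they also had unigenes past 2-fold towards FL ovule. Subunit O (Unigene0141491), a small subunit at the antenna docking side, had 6 reads in FL ovule and 163 in WT fiber, or 0.166 RPKM and 5.28 RPKM, 31.8-fold higher in WT fiber (14.3 to 87.9). The other unigene with the same text, Unigene0012799 of 236 bases, had 13 reads in FL ovule and 0 in WT fiber, at least 3.70-fold higher in FL ovule when WT fiber is set to 3 reads, where counting error in the 13 reads lowers the exact limit to 2.60. Subunit G, which helps to anchor the photosystem I antenna, had 3 unigenes. Unigene0020077 had 0.539 RPKM in FL ovule and 6.52 RPKM in WT fiber, 12.1-fold higher in WT fiber (6.68 to 24.0), and Unigene0020078 had 0.768 RPKM in FL ovule and 6.14 RPKM in WT fiber, 8.00-fold (4.85 to 13.9). The third, Unigene0045395, had 7.97 RPKM in FL ovule and 4.63 RPKM in WT fiber.

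Subunits D and E form the stromal docking site for ferredoxin and differed from each other. The subunit D unigene Unigene0050233 had 4.91 RPKM in FL ovule and 16.0 RPKM in WT fiber, 3.25-fold higher in WT fiber (2.78 to 3.82), whereas the subunit D unigene Unigene0045335 had 5.13 RPKM in FL ovule and 4.16 RPKM in WT fiber. The subunit E unigene Unigene0146040 had 11 RPKM in FL ovule and 5.33 RPKM in WT fiber, 2.06-fold higher in FL ovule (1.71 to 2.49). Subunit F, the docking site of plastocyanin, had unigenes past 2-fold in each direction: Unigene0042209 had 3.52 RPKM in FL ovule and 0.475 RPKM in WT fiber, and Unigene0059566 had 0.874 RPKM in FL ovule and 2.94 RPKM in WT fiber. Other photosystem I unigenes were past 2-fold towards FL ovule with 1 added to each RPKM. These were Unigene0058194 of subunit L, 2.85-fold (2.31 to 3.53), Unigene0029907 of subunit K, 6.74-fold (3.36 to 15.3), and Unigene0003098, with the text subunit PSI, 7.26-fold (2.59 to 28.2). On that scale, the nuclear-encoded photosystem I unigenes past 2-fold towards WT fiber were those of subunits D, F, G and O given above. In all, 22 of the text groups of the 199 members had at least 2 measured unigenes, and in 4 of them unigenes were past 2-fold in both directions. These 4 were the photosystem II antenna, light-harvesting-like protein 3 and photosystem I subunits F and O.

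Plastid-encoded core subunits had the highest levels of all members and were higher in WT fiber. They held 47.6% of the summed RPKM of the 199 members in FL ovule, against 72.0% in WT fiber. The CP43 unigene (Unigene0108071), an inner antenna subunit of photosystem II, had 61443 reads in FL ovule and 155920 in WT fiber, or 208 RPKM and 617 RPKM, 2.97-fold higher in WT fiber (2.94 to 3.0). The unigene of the P700 apoprotein A2 (Unigene0068183), which carries the reaction centre of photosystem I together with apoprotein A1, had 179 RPKM in FL ovule and 266 RPKM in WT fiber, 1.48-fold (1.47 to 1.5). Apoprotein A1 (Unigene0068181) had 19.6 RPKM in FL ovule and 30.6 RPKM in WT fiber, 1.56-fold (1.5 to 1.63). The CP47 unigenes Unigene0068175 and Unigene0096746, of the other inner antenna subunit of photosystem II, were 1.45-fold (1.42 to 1.48) and 1.71-fold (1.58 to 1.86) higher in WT fiber.

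The 5 plastid-encoded members above 5 RPKM were higher in WT fiber as deposited, but their sizes differed. CP43 stood at 2.97-fold and the other 4 between 1.45-fold and 1.71-fold. Of the 22 unigenes in this class, 14 were measured, 1 was past 2-fold towards FL ovule and 2 towards WT fiber (7.14% and 14.3% of the measured, against 15.3% and 10.5% of all measured unigenes). With both RPKM sums set equal, 0 were past 2-fold towards FL ovule and 7 towards WT fiber. Their median log2 ratio was -0.49, and it stayed below 0 under each of the 4 other scalings, between -0.71 and -0.28. The member past 2-fold towards FL ovule was a unigene of 358 bases whose text is reaction centre protein D2 of an alga, Phaeocystis globosa (Unigene0031448), with 67 reads in FL ovule against 20 in WT fiber. The summed RPKM was 463 in FL ovule, against 994 in WT fiber. Several of these unigenes are long, up to 8775 bases. The labels describe both an oligo-dT and a ribosomal-RNA-depleted preparation without saying which the tables hold, and any bearing of this on plastid transcripts was not tested. Plastid genes are transcribed in operons, and the sequences were not analysed here, so a unigene may hold more genes than its text names. Of the 22, 1 has the text photosystem II subunit T, which names both a plastid and a nuclear protein, and it was below 1 RPKM in both libraries.

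**Figure D3:**
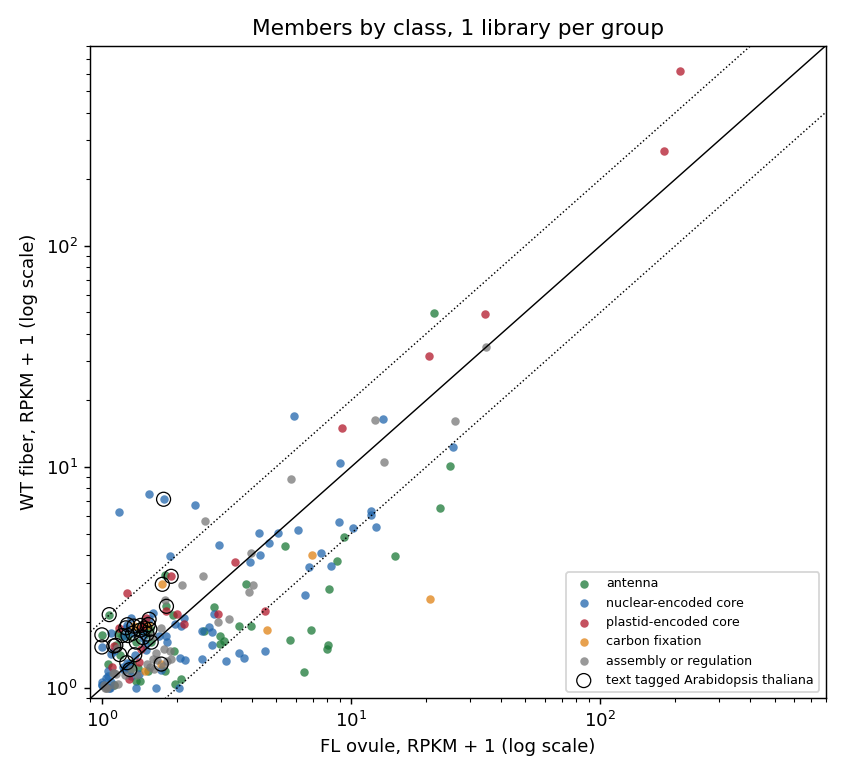
Level of each of the 199 members, as RPKM + 1 on log axes, with FL ovule on the x axis and WT fiber on the y axis. Colours are classes, rings mark texts tagged Arabidopsis thaliana, the solid line is equality and dotted lines mark 2-fold. The plastid-encoded unigenes at the upper right lie above the line of equality, and most antenna points above 5 RPKM lie below it.

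Carbon fixation had few unigenes. The text Ribulose bisphosphate carboxylase family protein (Unigene0051857), which does not name the subunit, had 1040 reads in FL ovule and 69 in WT fiber, or 19.6 RPKM and 1.52 RPKM, a 12.9-fold difference (10.1 to 16.7). The cotton small subunit unigene (Unigene0048263) had 5.98 RPKM in FL ovule and 3.02 RPKM in WT fiber, 1.98-fold (1.56 to 2.54). The third Rubisco text, small chain 3B with an Arabidopsis tag (Unigene0049570), had 0.747 RPKM in FL ovule and 1.95 RPKM in WT fiber, 2.60-fold higher in WT fiber (1.68 to 4.12). No member had a text of the large subunit itself. Rubisco activase 2 (Unigene0059409), the ATPase that frees Rubisco of bound inhibitors, had 3.61 RPKM in FL ovule and 0.825 RPKM in WT fiber, 4.37-fold (3.30 to 5.88). The other 4 activase unigenes were below 1 RPKM in both libraries.

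Of the 8 carbon fixation unigenes, 4 were measured. With 1 added to each RPKM, 2 were past 2-fold towards FL ovule and 0 towards WT fiber, or 50% and 0% of the measured. Among all measured unigenes the shares were 15.3% and 10.5%. The small chain 3B unigene is not counted on that scale. The summed RPKM of the 8 unigenes was 32.1 in FL ovule, against 9.64 in WT fiber, a 3.33-fold difference. Unigene0051857 decided most of it: without that unigene the log2 ratio of the sums was 0.62, against 1.74 with it.

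Factors of assembly and regulation mostly differed by less than 2-fold with 1 added to each RPKM. The RuBisCO large subunit-binding protein alpha, a plastid chaperonin subunit that folds the large subunit and other proteins, had 3 unigenes. Unigene0094380 had 33.6 RPKM in FL ovule and 33.7 RPKM in WT fiber, a ratio of 0.997 (0.951 to 1.05), and Unigene0094379 had 25.2 RPKM in FL ovule and 15.1 RPKM in WT fiber, 1.67-fold (1.56 to 1.77). The HCF136 factor, needed in Arabidopsis to assemble photosystem II, had 4 unigenes that summed to 18.4 RPKM in FL ovule and 28.1 RPKM in WT fiber. Its 3 measured unigenes were higher in WT fiber as deposited. Of these, Unigene0050011 had 1.59 RPKM in FL ovule and 4.68 RPKM in WT fiber, 2.94-fold higher in WT fiber (2.16 to 4.04). The 32 unigenes with a Rubisco methyltransferase family text, a family that also modifies other proteins, were at 2.97 RPKM or less in FL ovule and 3.08 RPKM or less in WT fiber, and none was past 2-fold with 1 added to each RPKM. By fold with nothing added, Unigene0079655 differed 2.12-fold towards FL ovule (1.36 to 3.39), while Unigene0080199, below 1 RPKM in both libraries, differed 3.51-fold towards WT fiber (2.03 to 6.36). In the whole class of 40 unigenes, 14 were measured, with 0 past 2-fold towards FL ovule and 1 towards WT fiber. These were 0% and 7.14% of the measured, against 15.3% and 10.5% of all measured unigenes. Its median log2 ratio of -0.02 moved with scaling between -0.50 and 0.50.

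**Figure D4:**
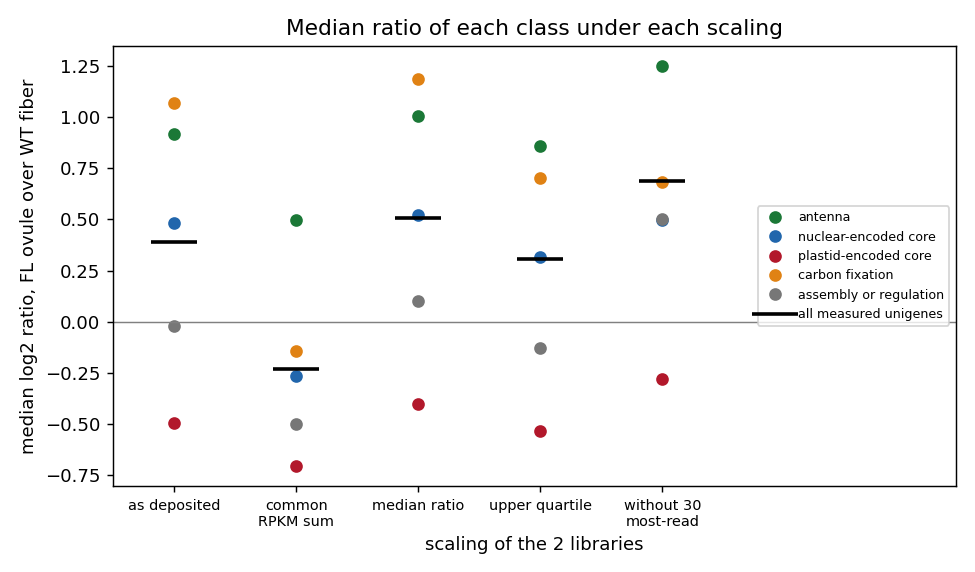
Median log2 ratio of FL ovule over WT fiber (y axis) of the measured members of each class (coloured points) and of all measured unigenes (black bars) under the 5 scalings on the x axis. The antenna point lies above the bar and the plastid-encoded core point below it under each scaling, and the nuclear-encoded core lies close to it.

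The annotation texts end in the species of the matched database sequence, which does not show where the RNA came from. Members tagged Arabidopsis thaliana were mostly lower in FL ovule. Of 30 such members, 28 were lower in FL ovule and 2 were higher, with a median log2 ratio of -0.41. They were short, from 205 to 859 bases, and low, with a median of 0.365 RPKM in FL ovule and 0.763 RPKM in WT fiber, and 6 of the 30 were measured. Of the 169 members with another tag, 109 were higher in FL ovule and 60 were lower, with a median of 0.13. Of all 136262 unigenes, 71.1% were higher in FL ovule, with a median of 0.24, so the members with another tag had no lean to FL ovule beyond that background. Among all 3179 unigenes with the Arabidopsis thaliana tag, 2158 were higher in FL ovule and 1021 lower, with a median of 0.17, so the lean of the tagged members was not seen over the tag as a whole. Of the 15 antenna unigenes with this tag, 14 were lower in FL ovule, whereas 30 of the 35 antenna unigenes with another tag were higher there. Why these members differ was not tested.

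The rest of the pathway was mixed, and its counts stand against 15.3% of all measured unigenes past 2-fold towards FL ovule, 10.5% towards WT fiber and an overall median of 0.39. Of 50 unigenes of chlorophyll synthesis, 26 were measured, 5 were past 2-fold towards FL ovule and 1 towards WT fiber, with a median log2 ratio of 0.14. Protochlorophyllide oxidoreductase A (Unigene0079692), which carries out the light-dependent step, had 6.45 RPKM in FL ovule and 1.65 RPKM in WT fiber, 3.92-fold (3.17 to 4.88), and a uroporphyrinogen III synthase matched to a green alga (Unigene0046664) was 3.32-fold higher in FL ovule (2.69 to 4.14). Of 18 unigenes of chlorophyll breakdown, 6 were measured, 0 were past 2-fold towards FL ovule and 1 towards WT fiber, Non-yellowing 1 (Unigene0139204), a stay-green protein, at 1.36 RPKM in FL ovule and 7.90 RPKM in WT fiber. Pheophytinase (Unigene0076367), which removes the phytol tail, had 10.1 RPKM in FL ovule and 11.7 RPKM in WT fiber.

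In electron transport between the photosystems, 4 of 31 measured unigenes were past 2-fold towards FL ovule and 1 towards WT fiber, with a median of 0.41. By its text pattern this list may also hold ferredoxins that do not act in photosynthesis. A ferredoxin-related unigene (Unigene0067845) had 13.3 RPKM in FL ovule and 153 RPKM in WT fiber, 11.5-fold higher in WT fiber (10.7 to 12.4), while ferredoxin 3 (Unigene0046303) was 2.31-fold higher in FL ovule (2.01 to 2.66). Of 5 measured unigenes of the chloroplast ATP synthase, 0 were past 2-fold towards FL ovule and 1 towards WT fiber, subunit a (Unigene0105986), with 9.89 RPKM in FL ovule and 37.2 RPKM in WT fiber. The ATP synthase CF1 alpha unigene Unigene0108080 had 10.7 RPKM in FL ovule and 21.2 RPKM in WT fiber.

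The Calvin cycle after Rubisco summed to 251 RPKM in FL ovule and 417 RPKM in WT fiber. Of 26 measured unigenes, 2 were past 2-fold towards FL ovule and 3 towards WT fiber (7.69% and 11.5%), with a median of -0.06. A ribulose phosphate epimerase (Unigene0063533), which also serves the pentose phosphate pathway, had 17.1 RPKM in FL ovule and 106 RPKM in WT fiber, 6.21-fold higher in WT fiber (5.84 to 6.61), and a ribose 5-phosphate isomerase (Unigene0055191) was 2.48-fold higher there (2.35 to 2.62). Photorespiration had 2 unigenes of 32 past 2-fold towards FL ovule and 7 towards WT fiber (6.25% and 21.9%), with a median of -0.34. The glycolate oxidase unigenes Unigene0055490 and Unigene0055489, of the peroxisomal enzyme of that pathway, were 7.47-fold (5.61 to 10.1) and 6.63-fold (3.99 to 11.6) higher in WT fiber.

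Plastid ribosomal proteins had a median of 0.52, with 6 of 29 measured unigenes past 2-fold towards FL ovule and 3 towards WT fiber. The 2 with the largest ratios at 5 RPKM or more, 50S ribosomal protein L23-like (Unigene0060602) and 30S ribosomal protein S11-like (Unigene0056532), were 2.98-fold (2.78 to 3.20) and 2.64-fold (2.42 to 2.88) higher in WT fiber. Light regulators, a broad list of GATA factors, phytochromes and cryptochromes, had 12 of 83 measured unigenes past 2-fold towards FL ovule and 11 towards WT fiber. A text of phytochrome kinase substrate 4 (Unigene0054810), a protein of phototropism signalling in Arabidopsis, had 0.404 RPKM in FL ovule and 26.2 RPKM in WT fiber, 64.9-fold higher in WT fiber (44.1 to 99.6). A GATA zinc finger text (Unigene0018767) had 30 RPKM in FL ovule and 418 RPKM in WT fiber, 14.0-fold (13.4 to 14.6).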

How the data were processed

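RNA of 1 FL ovule and 1 WT fiber sample was sequenced on an Illumina instrument after oligo-dT enrichment and, separately, after removal of ribosomal RNA, per the labels' protocols. Which of these the tables hold is not stated. Per the file headers, the authors deposited a count of uniquely mapped reads for each unigene. The deposited RPKM values equal the count divided by unigene length and read total, as recomputed here. Bowtie and Bowtie2 appear in the submitters' processing notes without versions. Assembler, build and strandedness: not given in the sources used here. The deposited tables hold no sequences and of the unigene names 0 were found in the RefSeq gene table, so no sequence or position is given.

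Tables were joined on the unigene identifier, with an absent unigene taken as 0 reads (Python 3.11.15, pandas 2.3.3, SciPy 1.17.1). Classes were assigned by annotation text. Named unigenes in each class are the 6 with the highest RPKM and the 4 with the largest absolute ratio. The latter were chosen among unigenes at 5 RPKM or more in either library. In each pathway list they are the 2 with the largest absolute ratio at the same RPKM limit. Subunit partners, members of groups of 5 or fewer and other photosystem I unigenes past 2-fold were named after their values were seen. Spellings in the pathway lists were widened after the texts were seen. Ratios and intervals were tested on simulated data. The members and lists were chosen with earlier results of these data known. Alternatives changed the pseudocount, filter, fold threshold, scaling and set of unigenes.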

Additional observations from a re-analysis of the deposited data

How the results depend on the processing

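No paired analysis was possible because each group had 1 library. A log2 ratio was taken as moved when its shift reached the distance from the middle to the end of its counting interval. A count was taken as moved by a fixed limit on its relative change, without a counting interval. The log2 ratio of summed RPKM of the antenna was 0.67 as deposited. It was 0.045 with a common RPKM sum, 0.81 with median-ratio scaling, 0.55 with upper quartile scaling and 1.03 without the 30 most-read unigenes in the totals. It was 0.50 with 1 unigene per annotation text, 1.37 without its most abundant unigene, 0.79 without Arabidopsis thaliana tags and 1.29 without light-harvesting-like texts. The antenna count higher in FL ovule, 11 in the report, was 17 with a pseudocount of 0.1, 6 with 5, 3 at 4-fold and 18 without the 30 most-read unigenes. The count of 2 higher in WT fiber was 0 at 4-fold, and it was 1 with a pseudocount of 5, at 5 RPKM or more, with median-ratio scaling, without the 30 most-read unigenes, with 1 unigene per text, without Arabidopsis thaliana tags and without light-harvesting-like texts.

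For the whole photosystem core the log2 ratio of sums was -0.82 as deposited, -1.44 with a common RPKM sum, -0.68 with median-ratio scaling, -0.94 with upper quartile scaling, -0.46 without the 30 most-read unigenes, -0.86 with 1 unigene per text and -0.27 without CP43. The core count higher in FL ovule, 10 as deposited, was 20 with a pseudocount of 0.1, 0 with 5, 4 at 5 RPKM or more, 0 at 4-fold, 2 with a common RPKM sum and 20 without the 30 most-read unigenes. The count of 8 higher in WT fiber was 3 with a pseudocount of 5, 3 at 4-fold and 14 with a common RPKM sum. For carbon fixation the log2 ratio of sums, 1.74, was 1.11 with a common RPKM sum, 2.09 without the 30 most-read unigenes, 0.62 without its most abundant unigene and 2.42 without Arabidopsis thaliana tags. The count of 2 higher in FL ovule was 1 with a pseudocount of 5, at 5 RPKM or more, at 4-fold and with a common RPKM sum, and the count of 0 higher in WT fiber was 1 with a pseudocount of 0.1 and with a common RPKM sum. The median ratio of carbon fixation changed sign to -0.14 with a common RPKM sum, on 6 measured unigenes. A pseudocount cannot change a direction, and the 4 other scalings moved ratios of RPKM only by factors between 0.648 and 1.28. The direction of the 20 named members past 2-fold was therefore fixed under these alternatives and was not tested by them. Under the 2 other pseudocounts and 4 other scalings, 101 of their 120 values stayed past 2-fold. Alternatives without tags or without light-harvesting-like texts were chosen after seeing the data. The 98 members below 1 RPKM had a median of 8.5 reads in FL ovule (highest 162) and of 9 reads in WT fiber (highest 170).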

Other observations

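A few plastid texts lay outside the chosen members and were picked after the data were seen. A unigene with the text maturase K (Unigene0097156), a plastid-encoded splicing factor, had 1918 RPKM in FL ovule and 4823 RPKM in WT fiber, 2.51-fold higher in WT fiber. It is 4566 bases long and its sequence was not analysed, so it may hold more genes than its text names. Its level therefore cannot be credited to maturase K alone. A cytochrome b559 alpha text (Unigene0036314), of a small photosystem II core subunit, had 22.4 RPKM in FL ovule and 46.1 RPKM in WT fiber. The ATP synthase CF1 beta unigene (Unigene0108077) had 56.6 RPKM in FL ovule and 73.4 RPKM in WT fiber. One unigene with a CF1 alpha text, Unigene0108079, went the other way, with 8.38 RPKM in FL ovule and 4.81 RPKM in WT fiber, next to Unigene0108080 with the same text.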
